A study of Mus musculus with 24 samples.

Results

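The interferon-stimulated genes described here are 49 genes of the mouse aorta, taken by gene symbol from a fixed list out of the 40141 genes of a deposited RNA-seq count table. They were split into 12 GTPases that interferon-gamma is best known to induce (7 Gbp genes, Irgm1, Irgm2, Igtp, Iigp1 and Tgtp1) and 37 other members, most of them targets of type I interferon. The members and the other lists used below were chosen with earlier results of these data known. Their counts beside the shares of all genes are therefore descriptions. All 49 members were found and passed the filter on low counts, and each had a count in every library. The samples were aortas of Cthrc1-/- mice given Ang-II/BAPN, Cthrc1-/- mice given PBS, wild type mice given Ang-II/BAPN and wild type mice given PBS, with 6 libraries for each combination of genotype and treatment. Ang-II is angiotensin II, which raises blood pressure, and BAPN is β-aminopropionitrile, an inhibitor of the enzymes that cross-link elastin and collagen. The combination is used to provoke aortic dissection in mice. Cthrc1 encodes a secreted protein of injured arteries. Of the 6 libraries, 3 carry an F in front of their title and are called the F set here. The other 3 are called the plain set. What the F stands for is not explained in the labels. The labels name no knockout allele, strain, age, dose or duration. They also do not state that the libraries of a group are separate animals, and the p-values therefore describe the spread among these libraries, part of which may be technical.

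Type I interferons, such as interferon-beta, bind the receptor Ifnar1-Ifnar2 and activate the kinases Jak1 and Tyk2. These phosphorylate Stat2, which acts in a complex with Irf9 at the interferon-stimulated response element (ISRE). Interferon-gamma binds Ifngr1-Ifngr2 and acts through the gamma-activated site (GAS). Targets of both routes include sensors of viral nucleic acid, enzymes that block viral replication, the immunoproteasome and the GTPases of the Gbp and Irg families, which attack the vacuoles of intracellular microbes. In the vessel wall, macrophages, endothelial cells and smooth muscle cells can all express them.

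Promoter sequence is shown for 9 members. Ifi44 and Rsad2 differed between treated genotypes, Oas3 had the largest log2 fold change in wild type, Isg15 and Ifit1 stand for their families, and the 4 GTPases Irgm1, Irgm2, Igtp and Tgtp1 differ in their elements. RefSeq promoter windows of 300 bases (250 before and 50 after the start, build GRCm38.p6) were available for 36 of the 49 members. The ISRE core was searched as GAAANNGAA and its reverse complement TTCNNTTTC, and the GAS core as TTCNNNGAA, which reads the same on both strands. In each 90-base stretch below, given 5′ to 3′ along the gene, capitals mark the bases of these cores. The first 5 are non-GTPase members, and cores that overlap appear as 1 run of capitals.
Isg15, chr4:156200836-156200925, minus strand: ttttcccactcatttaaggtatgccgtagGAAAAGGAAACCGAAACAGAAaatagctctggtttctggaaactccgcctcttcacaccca
Oas3, chr5:120777680-120777769, minus strand: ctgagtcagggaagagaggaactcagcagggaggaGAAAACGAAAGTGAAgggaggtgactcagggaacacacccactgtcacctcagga
Ifit1, chr19:34640764-34640853, plus strand: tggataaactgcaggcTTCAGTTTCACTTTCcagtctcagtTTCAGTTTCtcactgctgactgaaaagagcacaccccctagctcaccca
Rsad2, chr12:26456523-26456612, minus strand: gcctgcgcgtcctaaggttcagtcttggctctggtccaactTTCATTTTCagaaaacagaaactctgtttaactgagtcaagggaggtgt
Ifi44, chr3:151749905-151749994, minus strand: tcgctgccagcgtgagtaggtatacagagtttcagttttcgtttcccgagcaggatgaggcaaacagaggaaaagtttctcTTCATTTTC
Irgm1, chr11:48871421-48871510, minus strand: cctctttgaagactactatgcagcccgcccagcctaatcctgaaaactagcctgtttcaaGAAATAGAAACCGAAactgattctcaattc
Irgm2, chr11:58214872-58214961, plus strand: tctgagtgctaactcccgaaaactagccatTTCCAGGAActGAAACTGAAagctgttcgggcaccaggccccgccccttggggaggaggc
Igtp, chr11:58199466-58199555, plus strand: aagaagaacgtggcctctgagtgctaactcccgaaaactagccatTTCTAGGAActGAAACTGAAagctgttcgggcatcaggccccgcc
Tgtp1, chr11:48992275-48992364, minus strand: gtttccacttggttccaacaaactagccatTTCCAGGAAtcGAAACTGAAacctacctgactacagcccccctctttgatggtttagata

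An ISRE core was present in 23 of the 36 members with a window (63.9%), against 9.76% of the 27018 genes with such a window. A GAS core was present in 11 of the 36 (30.6%), against 9.55% of all genes. All 8 GTPases with a window held an ISRE core and 5 of them a GAS core. Among the other members, 15 of 28 held an ISRE core and 6 of 28 a GAS core. In Irgm2, Igtp and Tgtp1 a GAS core started 11 bases before an ISRE core on the same strand, whereas the Irgm1 window held 2 ISRE cores and no GAS core. Both cores were found in 8 members and neither in 10, among them Irf7, Irf9, Oasl1 and Oasl2. In Bst2 the GAS core overlapped an ISRE core. These matches describe letters within the windows and are not measured binding sites.

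Library totals ran from 39.0e6 to 82.0e6 counts, and mitochondrial genes took 9.6 to 31.9% of a library. Cthrc1 itself was lower in every Cthrc1-/- library than in every wild type library of the same treatment. Its level, in CPM (counts relative to the library total after TMM scaling), ran from 1.79 to 10.5 CPM in treated Cthrc1-/- aortas and from 26.5 to 112 CPM in treated wild type aortas. Xist, which the inactive X chromosome transcribes, had at least 186 CPM in every F library and at most 13 CPM in every plain library, and the Y-linked Ddx3y had at most 1.21 CPM in every F library and 55.6 to 106.6 CPM in the plain libraries. The title sets thus differed in markers of female and male cells. Summed intestinal markers (Clca1, Agr2, Car1, Lypd8 and Cyp2c55) lay between 75 and 211 CPM in 4 treated wild type libraries (plain 1, 2 and 3, and F 2), against at most 13.3 CPM in every other library. The small nuclear RNA Rn7sk lay between 4.85 and 32.7 CPM in 5 libraries (Cthrc1-/- PBS plain 2 and F 2, Cthrc1-/- Ang-II/BAPN F 1, and wild type PBS F 2 and F 3), against at most 1.45 CPM in the rest. Since whole tissue was sequenced, fewer cells of a type and less RNA per cell cannot be told apart.

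Under PBS the members spanned a wide range of levels in the aorta. Per transcript length, in the FPKM deposited by the authors, the highest was Ifi27l2a, a small membrane protein of mitochondria, with 75.3, 150 and 218 FPKM as the lowest, median and highest wild type PBS libraries. Bst2, which tethers budding virus particles to the cell, followed at a median of 40.3 FPKM, and Gbp2 at 13.6 FPKM. At the low end Oas3 had 0.0209, 0.053 and 0.136 FPKM, Mx1 a median of 0.302 FPKM and Oas1g one of 0.415 FPKM. These 3 members at the bottom of the range were among those with large changes under treatment, described below.

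Loss of Cthrc1 alone was not accompanied by a called change in any member. Under PBS, 0 of 49 members differed between Cthrc1-/- and wild type aortas in edgeR's quasi-likelihood test at an adjusted p under 0.05, against 0% of all 24623 genes tested in either direction. No member had an unadjusted p under 0.05, and DESeq2 (which called 0.276% of all genes higher and 0.0853% lower) and limma on FPKM (0%) also called 0 members. The median log2 fold change over the 49 was 0.04. Zbp1, for example, had 2.57, 3.38 and 4.24 CPM in Cthrc1-/- PBS libraries, against 2.41, 2.69 and 4.70 CPM in wild type PBS libraries (lowest, median, highest). The largest value was that of Oas3, at 0.87 (SE 0.64, edgeR adjusted p = 1).

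Treatment of wild type mice with Ang-II/BAPN raised most of the members. Of the 49, 31 rose and 0 fell, where 13.3% of all genes tested were called higher and 11.5% lower (edgeR, adjusted p under 0.05, 6 libraries in each group). DESeq2 called 1 member lower, Gbp4, among 13.7% of all genes. The median log2 fold change was 0.95 over the 49 members and 0.01 over all genes. The rise was uneven between the groups of members: 30 of the 37 others rose, with a median of 1.09, against 1 of the 12 GTPases, with a median of 0.41. Of the 31, 22 rose at least 2-fold, as 9.23% of all genes did, and 8 at least 4-fold.

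**Figure D1:**
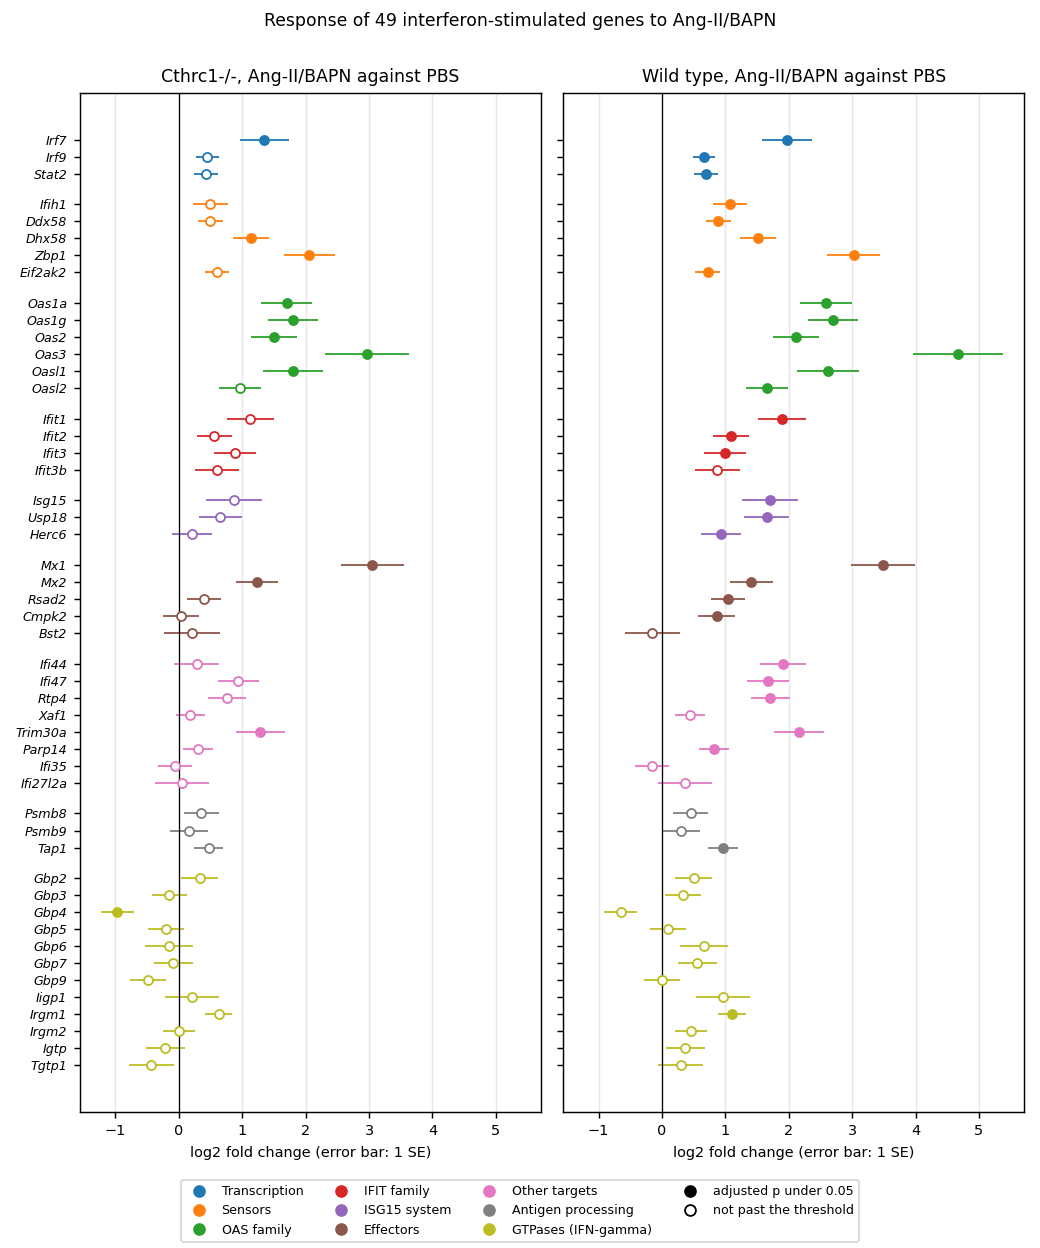
Log2 fold change of each of the 49 members under Ang-II/BAPN against PBS, in Cthrc1-/- aortas (left) and wild type aortas (right), with 1 SE from the edgeR fit. Filled points passed an adjusted p under 0.05: 12 members in Cthrc1-/- (11 higher, 1 lower) and 31 in wild type, with Oas3, Mx1 and Zbp1 farthest to the right in both genotypes.

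The 3 members that carry the signal into the nucleus all rose in treated wild type aortas. Irf7, the factor that amplifies interferon transcription, had 15.1, 79.4 and 120 CPM in Ang-II/BAPN libraries, against 11.4, 14.5 and 28.7 CPM in PBS libraries. Its log2 fold change was 1.97 (SE 0.40, edgeR adjusted p = 0.00126). Irf9 had 22.4, 43.8 and 51.2 CPM in treated and 22.6, 24 and 28.1 CPM in PBS libraries (log2 fold change 0.66, SE 0.17, edgeR adjusted p = 0.00884). Stat2, its partner, had 35.6, 58.8 and 86.5 CPM in treated and 32.9, 37.1 and 40.2 CPM in PBS libraries (0.69, SE 0.19, edgeR adjusted p = 0.0133). In all 3 genes the groups overlapped, with 4 of the 6 treated libraries above every PBS library.

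All 5 sensors of nucleic acid rose in wild type aortas. Zbp1, which senses Z-form nucleic acid and can trigger cell death, had 5.01, 30.4 and 46.7 CPM in treated libraries, against 2.41, 2.69 and 4.70 CPM in PBS libraries. Its groups did not overlap, and it rose 8.12-fold (log2 3.02, SE 0.42, edgeR adjusted p = 3.41e-05). Here and below, overlap of groups was not counted over all genes. Dhx58, a helicase that regulates RNA sensing, had 5.03, 12.8 and 19.1 CPM in treated and 2.74, 4.19 and 5.76 CPM in PBS libraries (log2 fold change 1.52, SE 0.28, edgeR adjusted p = 0.000592). Ddx58, which encodes the RNA sensor RIG-I, had 34.5, 44.8 and 67.4 CPM in treated and 15.1, 29.0 and 36.0 CPM in PBS libraries, and rose by 0.89 (SE 0.20, edgeR adjusted p = 0.00247). Of these 3, Dhx58 and Ddx58 each had 5 of 6 treated libraries above every PBS library. Ifih1, the RNA sensor MDA5, and Eif2ak2, the kinase that halts translation on binding double-stranded RNA, rose by 1.07 and 0.72.

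The oligoadenylate synthetases, which make the second messenger of RNase L, moved most: all 6 rose, with a median log2 fold change of 2.60. Oas3 had 1.27, 16.5 and 25.1 CPM in treated wild type libraries, against 0.244, 0.482 and 1.05 CPM in PBS libraries. The 2 groups did not overlap, and the fold change was 25.4 (log2 4.67, SE 0.72, edgeR adjusted p = 9.28e-05). Oas1g had 1.92, 10.4 and 12.6 CPM in treated and 0.862, 1.19 and 2.03 CPM in PBS libraries (log2 2.70, SE 0.40, edgeR adjusted p = 6.66e-05). Only its lowest treated library fell inside the PBS range. Oas1a had 4.79, 25.5 and 39.8 CPM in treated and 2.55, 3.51 and 5.74 CPM in PBS libraries (log2 2.59, SE 0.41, edgeR adjusted p = 0.000127). Oasl1 rose by 2.62, Oas2 by 2.11 and Oasl2 by 1.65. Oasl1 is a synthetase-like protein that limits the translation of Irf7.

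Of the 4 IFIT genes, whose proteins bind viral RNA, 3 rose in wild type. Ifit1 had 13.0, 36.3 and 56.8 CPM in treated libraries, against 5.39, 9.87 and 13.2 CPM in PBS libraries (log2 fold change 1.90, SE 0.37, edgeR adjusted p = 0.00103). Ifit2 had 22.1, 37.5 and 79 CPM in treated and 14.1, 18.3 and 29.5 CPM in PBS libraries, and Ifit3 had 21.1, 59 and 93.8 CPM against 13, 29.8 and 40.9 CPM. They rose by 1.09 (SE 0.28) and 0.99 (SE 0.33), and Ifit3b had a log2 fold change of 0.87 with an edgeR adjusted p of 0.0731. The Ifit3 call was lost in many settings, such as without treated wild type plain 1 (edgeR adjusted p = 0.116). Isg15, the ubiquitin-like modifier, had 3.99, 26.6 and 34.3 CPM in treated and 3.34, 5.89 and 14.4 CPM in PBS libraries. It rose by 1.70 (SE 0.45, edgeR adjusted p = 0.00871), although its lowest treated library lay near the bottom of the PBS range. Usp18, which removes Isg15 and damps the receptor, had 4.5, 15.4 and 24.1 CPM in treated and 3.31, 4.66 and 5.86 CPM in PBS libraries (1.65, SE 0.35, edgeR adjusted p = 0.00186). Herc6, a ligase for Isg15 in mouse, had 11.4, 20.1 and 37.8 CPM in treated and 6.33, 13.5 and 16.3 CPM in PBS libraries (0.93, SE 0.31, edgeR adjusted p = 0.0366). All 3 genes of this system rose, with overlap between the groups. The Herc6 call was lost with a replicate block (edgeR adjusted p = 0.0647). It was also lost without treated wild type plain 3 (edgeR adjusted p = 0.092), and in other settings.

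Among the direct antiviral effectors 4 of 5 rose. Mx1, a dynamin-like GTPase that blocks viral ribonucleoproteins, had 5.21, 18.5 and 37.96 CPM in treated wild type libraries, against 0.919, 1.47 and 2.63 CPM in PBS libraries. Its groups did not overlap (11.1-fold, log2 3.48, SE 0.51, edgeR adjusted p = 5.27e-05). Mx2 had 2.63, 6.03 and 9.2 CPM in treated and 0.942, 2.24 and 3.28 CPM in PBS libraries (1.41, SE 0.34, edgeR adjusted p = 0.00479). Rsad2 (viperin, which makes a chain-terminating nucleotide) had 23, 43.3 and 68.5 CPM in treated and 13.2, 20.2 and 29.4 CPM in PBS libraries (1.04, SE 0.26, edgeR adjusted p = 0.00701). Cmpk2, its neighbouring nucleotide kinase, rose by 0.87, a call lost in many settings, such as without treated wild type plain 1 (edgeR adjusted p = 0.118). Bst2 had 17.0, 56.8 and 81.9 CPM in treated and 24.5, 40.7 and 152 CPM in PBS libraries (log2 fold change -0.15, SE 0.44). Bst2 was the effector that did not pass the test.

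Of the 8 other targets 5 rose: Trim30a by 2.16, Ifi44 by 1.91, Rtp4 by 1.71, Ifi47 by 1.67 and Parp14 by 0.82. Trim30a, a member of the tripartite motif family, had 22.0, 54.4 and 79.5 CPM in treated libraries, all above the 5.68, 13.2 and 17.2 CPM of PBS libraries. Rtp4, a chaperone of receptors, had 9.78, 32.6 and 44.9 CPM in treated and 7.08, 8.67 and 10.3 CPM in PBS libraries (SE 0.31). Ifi44 had 5.14, 12.3 and 23.2 CPM in treated and 1.69, 2.94 and 6.22 CPM in PBS libraries (SE 0.36). Trim30a separated the groups completely, and the other 2 overlapped. Xaf1, Ifi35 and Ifi27l2a had log2 fold changes of 0.44, -0.16 and 0.36 without passing the threshold. In antigen processing, Tap1, the peptide transporter, had 22.3, 53.1 and 79.8 CPM in treated and 21.9, 23.9 and 33.2 CPM in PBS libraries and rose by 0.97 (SE 0.23), while the immunoproteasome subunits Psmb8 and Psmb9 had 0.45 and 0.30.

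Among the GTPases only Irgm1, a regulator of the Irg family, passed the test in wild type. It had 30.9, 51.3 and 73.1 CPM in treated libraries, against 18.7, 22.0 and 31.6 CPM in PBS libraries (log2 fold change 1.10, SE 0.22, edgeR adjusted p = 0.000913). The 2 lowest treated libraries lay just below the highest PBS library. Iigp1, which disrupts parasite vacuoles, had 24.6, 53.4 and 119 CPM in treated and 16.6, 28 and 72.8 CPM in PBS libraries (0.95, SE 0.43, edgeR adjusted p = 0.109). The 7 Gbp genes ran from -0.65 (Gbp4) to 0.67 (Gbp6). Irgm2, Igtp and Tgtp1, with the paired GAS and ISRE cores shown above, had log2 fold changes of 0.46, 0.37 and 0.29. Among members with a window, 3 of 23 called higher in wild type held a GAS core, against 8 of 13 that were not called, and 14 of 23 against 9 of 13 held an ISRE core.

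**Figure D2:**
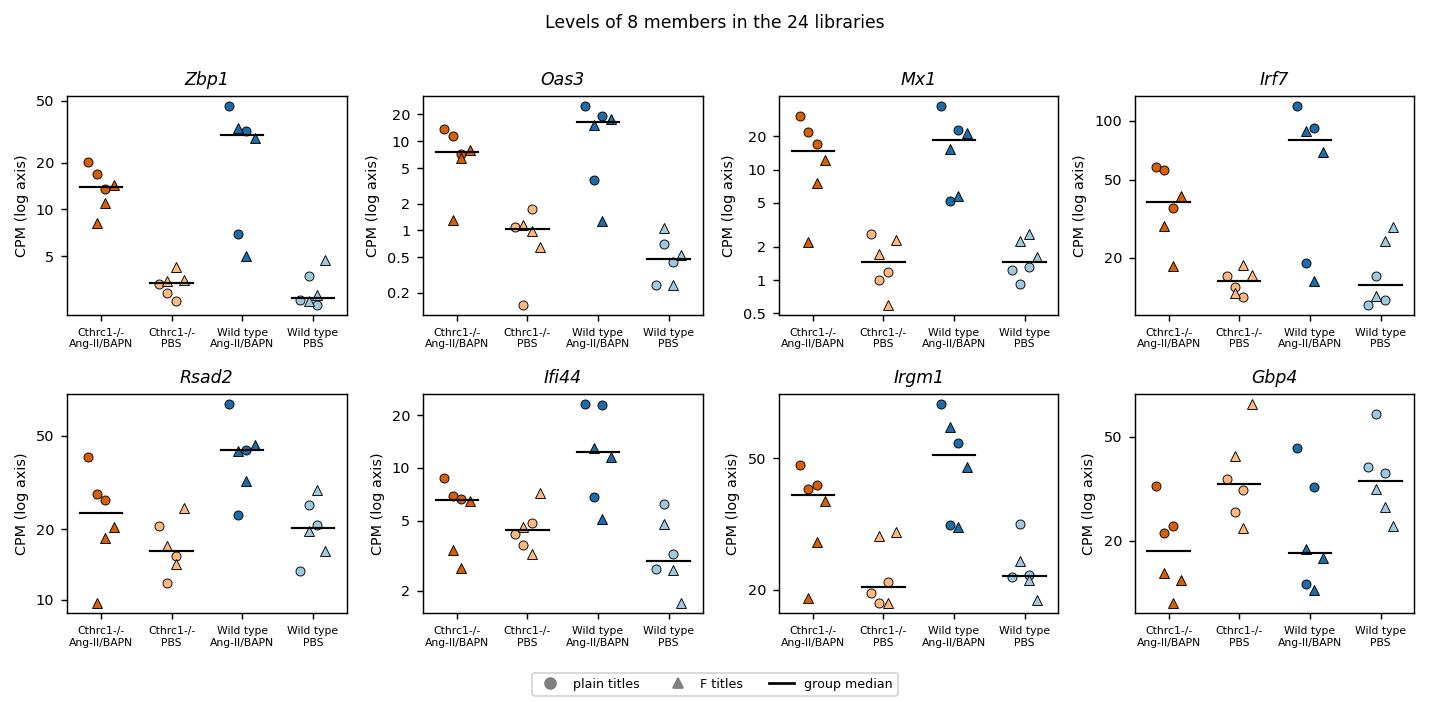
CPM (log axis) of 8 members in each of the 24 libraries, by genotype and treatment. Circles are plain titles, triangles are F titles and bars are group medians. Zbp1, Oas3 and Mx1 of treated wild type libraries lie above all wild type PBS libraries, while Gbp4 of treated libraries extends below the PBS range in both genotypes.

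In Cthrc1-/- aortas the same treatment raised fewer members past the threshold. Of the 49, 11 rose and 1 fell, where 7.03% of all genes tested were called higher and 4.4% lower. All 11 were among the 31 called in wild type. The median log2 fold change was 0.47 over the 49, 0.61 over the 37 others and -0.16 over the 12 GTPases. The sign of the GTPase median rested on 1 library, and it was 0.09 without Cthrc1-/- PBS F 3. For 47 of the 49 members the log2 fold change was smaller than in wild type. The difference between the 2 responses is tested below.

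The members called in Cthrc1-/- aortas were Irf7, Dhx58, Zbp1, 5 of the 6 OAS genes, Mx1, Mx2 and Trim30a. Mx1 had 2.22, 14.6 and 30.7 CPM in Ang-II/BAPN libraries, against 0.593, 1.45 and 2.63 CPM in PBS libraries (log2 fold change 3.05, SE 0.50, edgeR adjusted p = 0.00039). Oas3 had 1.29, 7.64 and 13.9 CPM in treated and 0.144, 1.04 and 1.74 CPM in PBS libraries (2.97, SE 0.66, edgeR adjusted p = 0.00557). For both genes 1 treated library lay inside the PBS range. Zbp1 had 8.20, 13.9 and 20.1 CPM in treated and 2.57, 3.38 and 4.24 CPM in PBS libraries (2.06, SE 0.40, edgeR adjusted p = 0.0021). Its groups did not overlap, nor did those of Dhx58, Oas1a, Oas1g, Oas2 and Oasl1. How many of all genes separated in this way was not counted. Oas1g had 3.56, 4.52 and 7.33 CPM in treated and 0.866, 1.37 and 2.16 CPM in PBS libraries (1.80, SE 0.39, edgeR adjusted p = 0.00436). Dhx58 had 7.82, 8.63 and 11.7 CPM in treated and 2.91, 4.17 and 5.03 CPM in PBS libraries (1.14, SE 0.28, edgeR adjusted p = 0.0111). Mx2, Trim30a and Oas2 rose by 1.23, 1.28 and 1.497. Irf7 had 18.2, 38.5 and 58.2 CPM in treated and 12.6, 15.1 and 18.3 CPM in PBS libraries (1.35, SE 0.39, edgeR adjusted p = 0.0299). Without treated Cthrc1-/- F 3, Irf7, Mx2 and Trim30a lost their calls (edgeR adjusted p of 0.0835, 0.0647 and 0.098), as they did in other settings.

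No IFIT gene, no gene of the Isg15 system and no gene of antigen processing was called in Cthrc1-/- aortas. Of all genes tested, 7.03% were called higher and 4.4% lower. In groups of so few genes, these shares alone would leave few calls or none. Ifit1 had 6.15, 23.4 and 27.4 CPM in treated libraries and 4.50, 8.30 and 11 CPM in PBS libraries, with an edgeR adjusted p of 0.0522. At an unadjusted p under 0.05, 2 of the 4 IFIT genes and 0 genes of the other 2 groups passed in edgeR. The share of all genes at that cut-off is not given. Isg15 had 8.86, 16.9 and 22.6 CPM in treated and 6.11, 6.43 and 15.9 CPM in PBS libraries (0.87, SE 0.44, edgeR adjusted p = 0.232). Tap1 had 29, 37.1 and 54.7 CPM in treated and 21.4, 27.2 and 35.4 CPM in PBS libraries (0.47, SE 0.23). Ifi44 had 2.68, 6.59 and 8.76 CPM in treated and 3.23, 4.40 and 7.16 CPM in PBS libraries (log2 fold change 0.28, SE 0.35), and Cmpk2 a log2 fold change of 0.03 (SE 0.29). The 1 member that fell was Gbp4, a guanylate-binding protein, with 11.6, 18.3 and 32.5 CPM in treated libraries, against 22.4, 32.9 and 66.7 CPM in PBS libraries (-0.97, SE 0.26, edgeR adjusted p = 0.0207). The call was lost with limma (adjusted p = 0.0929), with 4 group means (edgeR adjusted p = 0.0804) and at a fold of at least 2. It was also lost in edgeR without Cthrc1-/- PBS F 3 (-0.75, adjusted p = 0.0717), or without treated Cthrc1-/- F 2, plain 2 or plain 3 (adjusted p of 0.0576, 0.0646 and 0.0548). The other 11 GTPases had log2 fold changes between -0.49 (Gbp9) and 0.63 (Irgm1).

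Set directly against treated wild type aortas, treated Cthrc1-/- aortas had negative fitted log2 differences for 47 of the 49 members, but few passed the test. Of the 49, 0 were called higher and 2 lower, where 4.26% of all genes were called higher and 1.87% lower. At an unadjusted p under 0.05 the count was 12, and DESeq2 called 3 lower (5.71% of all genes) and limma on FPKM 1 (2.53%). The share of all genes at the unadjusted cut-off is not given. Parp14, with an unadjusted p of 0.04965 in edgeR, had an adjusted p of 0.1997. Many genes outside the members thus passed this cut-off too, and counts at it are no result about the members. Ifi44, a cytoplasmic protein of the interferon response, had 2.68, 6.59 and 8.76 CPM in treated Cthrc1-/- libraries, against 5.14, 12.3 and 23.2 CPM in treated wild type libraries (log2 fold change -1.24, SE 0.35, edgeR adjusted p = 0.0438). Rsad2 had 9.65, 23.5 and 40.6 CPM in treated Cthrc1-/- libraries, against 23.0, 43.3 and 68.5 CPM in treated wild type libraries (-0.91, SE 0.26, edgeR adjusted p = 0.0458). The groups overlapped for both genes, and no member separated the treated genotypes completely. Ifi44 had an adjusted p under 0.05 in 17 of 35 alternative settings and Rsad2 in 13 of 35. These counts leave aside the fold limit of 1 setting, a fold of at least 2, which Rsad2 did not meet. Within the title sets, with 3 libraries in each group, 0 members were called in edgeR, while 1 member of the plain set and 8 of the F set had an unadjusted p under 0.05. In the plain set 0.00406% of all genes were called in each direction and the members' median was -0.38. In the F set 0.126% were called higher and 0.0203% lower and the median was -0.66.

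The other 10 members with an unadjusted p under 0.05 in the same comparison were Rtp4, Ifit1, Ifit2, Usp18, Cmpk2, Zbp1, Ifih1, Oasl2, Parp14 and Irgm1. Since many other genes passed this cut-off as well, the list does not set these members apart. Rtp4 had 9.27, 16.7 and 23.6 CPM in treated Cthrc1-/- libraries and 9.78, 32.6 and 44.9 CPM in treated wild type libraries (-0.87, SE 0.30, edgeR adjusted p = 0.0878). Ifit1 had 6.15, 23.4 and 27.4 CPM in treated Cthrc1-/- libraries and 13, 36.3 and 56.8 CPM in treated wild type libraries (-0.92, SE 0.36, edgeR adjusted p = 0.128). Irgm1 had 18.9, 38.7 and 47.8 CPM in treated Cthrc1-/- libraries and 30.9, 51.3 and 73.1 CPM in treated wild type libraries (-0.52, SE 0.21, edgeR adjusted p = 0.137). Bst2 and Ifi35, at 0.51 and 0.14, were the 2 members with positive fitted values. Mx2, at -0.08, had a median of 6.06 CPM in treated Cthrc1-/- libraries and 6.03 CPM in treated wild type libraries.

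The median log2 difference of the 49 members between treated Cthrc1-/- and treated wild type aortas was -0.52, against 0.00 over all genes. It was -0.50 over the 12 GTPases and -0.53 over the 37 others. In the same libraries all 6 smooth muscle markers were called higher in Cthrc1-/- aortas, and 4 of 6 B and plasma cell markers and all 5 intestinal markers lower. T cell markers (6) had a median of -1.10 and macrophage markers (6) one of -0.22, with 0 called in either. Nnt, a mitochondrial gene that is defective in the C57BL/6J strain, had 5.24, 8.22 and 18.4 CPM in treated Cthrc1-/- libraries, against 29.7, 33.1 and 51.7 CPM in treated wild type libraries (edgeR adjusted p = 0.00938). The part of these cell types and of strain in the lower levels was not tested.

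The interaction asks whether the response to Ang-II/BAPN itself depended on genotype. No member was called, as was no gene of the whole table (0% in either direction). At an unadjusted p under 0.05 it was 2 members, Ifi44 (log2 -1.63, SE 0.50, edgeR adjusted p = 0.18) and Rtp4 (-0.95, SE 0.43). Without adjustment, 2 of 49 genes can pass by chance, and the share of all genes at this cut-off is not given. DESeq2 called 1 member lower, Ifi44, with 1.39% of all genes, and limma on FPKM 0. The log2 interaction was negative for 47 of 49 members, with a median of -0.53, while the all-gene median was -0.03. These comparisons share libraries with each other, so their values are descriptions of one set of 24 libraries.

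The responses differed more between libraries of a group than the group summaries show. The number of the 37 non-GTPase members above the highest PBS library of the same genotype was 33, 29 and 31 in the treated Cthrc1-/- plain libraries 1 to 3 and 14, 10 and 24 in the F libraries. It was 35, 14 and 32 in the treated wild type plain libraries and 32, 8 and 33 in the F libraries. In wild type, library 2 of both sets thus stood apart from the other 4. For the 12 GTPases the same counts were 1, 2, 1, 0, 0 and 1 in treated Cthrc1-/- libraries, and 10, 0, 9, 2, 0 and 2 in treated wild type libraries. Treated wild type plain 1 and 3 were the only libraries with more than 2 GTPases above their PBS range. Neither these counts nor the overlap of groups was taken over all genes. How far the members differ from other genes in this respect is therefore not known.

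**Figure D3:**
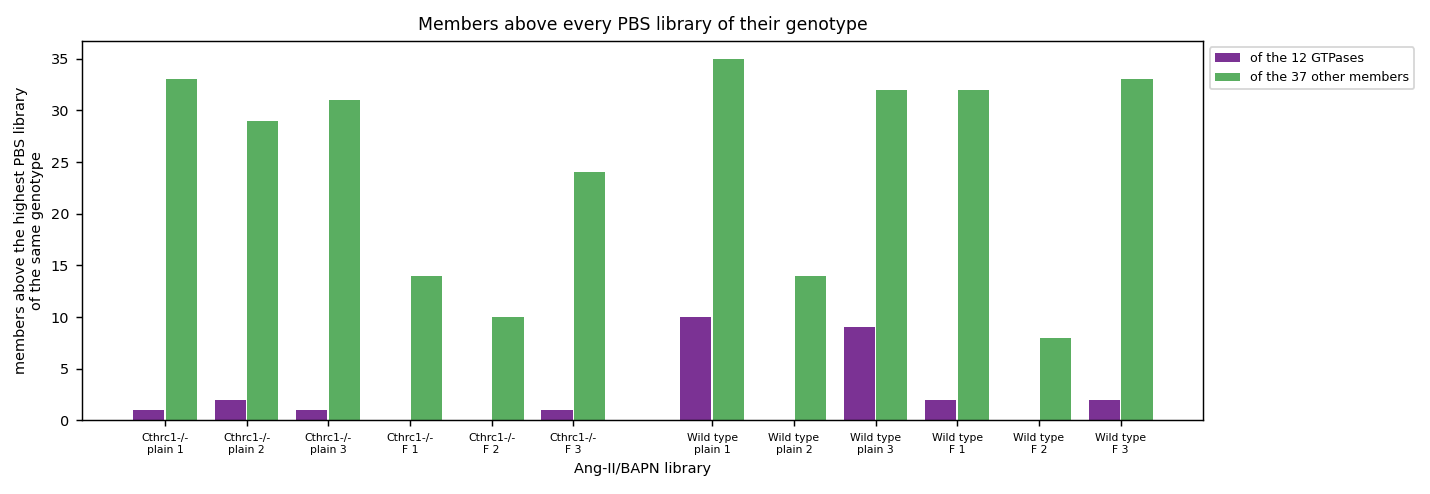
Number of the 12 GTPases and of the 37 other members that lay above every PBS library of the same genotype, for each Ang-II/BAPN library. Wild type plain 2 and F 2 have 14 and 8 of the 37, against 32 to 35 in the other 4 treated wild type libraries. The same count over all genes was not made.

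The 2 treated wild type libraries with low members also had the lowest sums of T cell markers among treated wild type libraries. T cell markers summed to 15.3 CPM in plain 2 and 5.99 CPM in F 2, against 28.4 to 69.9 CPM in the other 4. Macrophage markers summed to 330 and 326 CPM in these 2, against 396 to 872 CPM in the others. Summed intestinal markers were 211 and 75 CPM in these 2 and 188, 109.5, 1.83 and 0.3 CPM in the others, so that intestinal transcripts were high in libraries of both kinds. Among treated Cthrc1-/- libraries, F 1 and F 2 had the lowest members, with macrophage sums of 411 and 570 CPM against 327 to 421 CPM in the other 4, and T cell sums of 5.88 and 19.8 CPM against 10.1 to 28.7 CPM. The part of these cells in the spread was not tested.

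**Figure D4:**
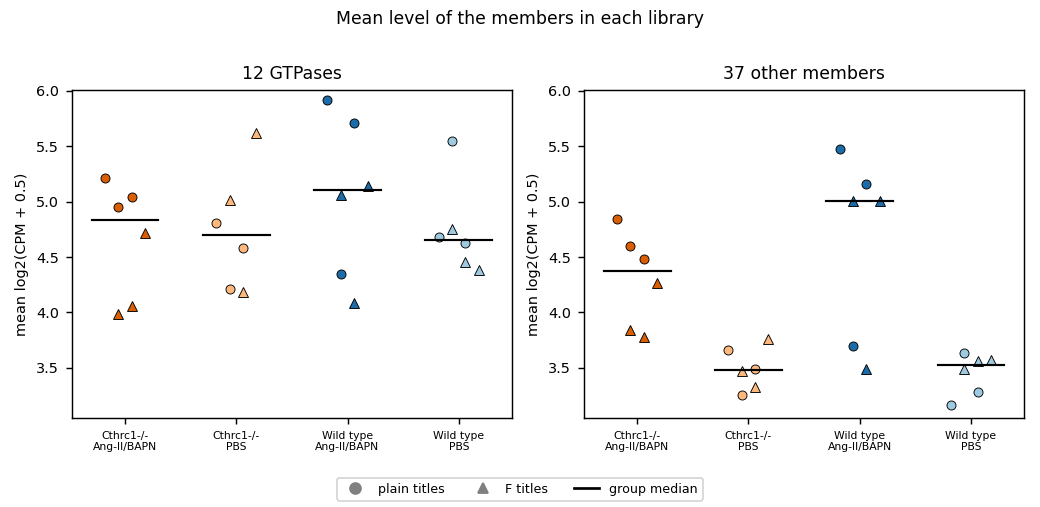
Mean log2(CPM + 0.5) of the 12 GTPases (left) and of the 37 other members (right) in each library. Circles are plain titles, triangles F titles, bars group medians. Medians of the 37 others are 4.37, 3.48, 5.005 and 3.53 in Cthrc1-/- Ang-II/BAPN, Cthrc1-/- PBS, wild type Ang-II/BAPN and wild type PBS, and those of the GTPases are 4.83, 4.70, 5.10 and 4.65.

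Each title set was also tested on its own, with 3 libraries in each group. In Cthrc1-/- plain libraries 3 members rose, Zbp1, Oas1g and Mx1, where 1.62% of all genes were called higher and 0.0772% lower, and the median over the 49 was 0.81. In Cthrc1-/- F libraries 0 rose and Gbp4 fell by 1.68 (edgeR adjusted p = 0.0114), where 4.4% of all genes were called higher and 2.12% lower. The median was 0.13, and 11 members had an unadjusted p under 0.05. In wild type plain libraries 19 members rose and 0 fell (4.72% and 3.89% of all genes), and in wild type F libraries 16 rose and 0 fell (7.85% and 6.08%), with medians of 1.03 and 0.90. The difference of the response between the sets was called for 0 members in either genotype by edgeR, DESeq2 or limma, and for 0% of all genes. At an unadjusted p under 0.05 it was 0 members in wild type and 8 in Cthrc1-/-, of which 7 were GTPases (Tgtp1 at -1.77 and Iigp1 at -2.07 among them) and 1 was Rsad2, at -1.20. Counts at this cut-off are given without the share of all genes, and some members can pass it by chance.

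Many members lie side by side in the genome. Taking members within 150000 bases of each other, 29 of the 49 fell into 10 clusters, in coordinates of the table's build, GRCm38. The OAS cluster on chromosome 5, from 120730333 to 120907521, holds Oas2, Oas3, Oas1g and Oas1a, all called in both genotypes, with a median log2 fold change of 1.75 in Cthrc1-/- and 2.64 in wild type. The Gbp cluster on chromosome 3 (142493978 to 142638008) holds Gbp5, Gbp7, Gbp3 and Gbp2, none called in either genotype, with medians of -0.12 and 0.42. The IFIT cluster on chromosome 19 (34550694 to 34650009) had medians of 0.75 and 1.04. On chromosome 11, Irgm1 and Ifi47 but not Tgtp1 were called in wild type within 1 cluster (48861968 to 49096974).

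Counts of some members cannot be separated from those of neighbours or close copies. Igtp and Irgm2 overlap by 7974 bases on the same strand, Gbp6 overlaps Gm43302 by 22994 bases, and Tgtp1 overlaps Gm12185 by 6900 bases. How the authors assigned shared reads, and whether strand was used, is not stated in any label or note. Dhx58 overlaps Dhx58os on the opposite strand, whose counts came to 19.5% of those of Dhx58. Near copies moved in the same direction for Trim30a, whose paralog Trim30d rose by 1.99 in wild type (SE 0.30). Tgtp2, a near copy of Tgtp1, had 0.40 there (SE 0.36), and Tgtp1 itself had 0.29 (SE 0.35). Values of these members are uncertain to that extent.

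Genes of the pathway outside the members were taken from a list of 78, of which 59 were tested. In treated Cthrc1-/- aortas 22 rose and 0 fell, where 7.03% of all genes were called higher and 4.4% lower. In treated wild type aortas 33 rose and 1, Irf3, fell (by 0.69), where 13.3% of all genes were called higher and 11.5% lower. The medians over the 59 were 0.37 and 0.73. Between treated Cthrc1-/- and treated wild type aortas 2 were lower, Irf2 (by 0.57) and Trim25 (by 0.59), a share near the 1.87% of all genes. The receptor chains Ifnar1, Ifnar2 and Ifngr1 rose in wild type by 0.86, 0.55 and 0.54, and Jak1 by 0.92.

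The 8 pathway genes with the smallest adjusted p in wild type are given here. Irf8, a factor of the myeloid lineage, had 15.7, 22.0 and 29.4 CPM in treated Cthrc1-/- and 5.03, 6.47 and 7.43 CPM in Cthrc1-/- PBS libraries, and 17.6, 29.0 and 58.1 CPM in treated wild type and 4.11, 4.82 and 6.05 CPM in wild type PBS libraries. Its log2 fold changes were 1.82 and 2.80. Irf5 rose by 2.39 in Cthrc1-/- and 3.13 in wild type, Sting1, the adaptor of DNA sensing, by 1.502 and 2.27, Ifi204, a DNA-binding protein, by 2.50 and 3.76, and Socs3, an inhibitor of Jak kinases, by 2.55 and 3.37. Tlr9, an endosomal DNA receptor, rose by 3.61 and 3.58, and Ptpn6, a phosphatase of leukocytes, by 2.25 and 3.44. Samhd1, which breaks down nucleotides, rose by 0.94 and 1.30. Each was called in both genotypes, and all 6 macrophage markers and all 5 neutrophil markers rose in both as well. Of 6 T cell markers 0 were called in Cthrc1-/- (edgeR, 1 at an unadjusted p under 0.05) and all 6 rose in wild type. Of 6 B and plasma cell markers 0 were called in Cthrc1-/- (1 at an unadjusted p under 0.05) and all 6 rose in wild type. The part of leukocyte content in the members' changes was not tested.

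The ligands themselves were scarcely detected. Of 9 interferon genes of the list in the table, 8 had fewer than 20 counts in all 24 libraries together, and only Ifng was tested. Ifnb1 had 2 counts in treated Cthrc1-/- libraries, 3 in Cthrc1-/- PBS, 0 in treated wild type and 9 in wild type PBS libraries. Ifng had 128 counts in treated Cthrc1-/- libraries against 4 in Cthrc1-/- PBS libraries, and 143 in treated wild type against 11 in wild type PBS libraries. It had log2 fold changes of 5.61 and 4.71, with edgeR adjusted p of 0.051 and 0.054. Cxcl10, a chemokine that interferon-gamma induces, rose by 3.39 in wild type, whereas Cxcl9 had 0.23 (SE 0.48). Siglech, a marker of plasmacytoid dendritic cells, the main producers of type I interferon, had medians of 0.895 CPM in treated Cthrc1-/-, 0.603 CPM in Cthrc1-/- PBS, 1.89 CPM in treated wild type and 0.792 CPM in wild type PBS libraries. Treated wild type libraries ran from 0.317 to 8.6 CPM. In Cthrc1-/- its log2 fold change was 0.65. The other listed markers of these cells had 0.46 (Ccr9), 0.37 (Tcf4), 0.20 (Bst2), -0.30 (Pacsin1) and -3.26 (Klk1) there, with none called. Klk1 was uneven, running from 4.91 to 619 CPM in Cthrc1-/- PBS libraries. The wild type fold changes of these markers are not given here.

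Calls depended on single libraries most between treated genotypes, where the 2 members lower in treated Cthrc1-/- aortas ranged from 0 to 6 and moved by over 1.5 times in 16 of 24 fits without 1 library. The count was 6 without treated wild type F 2, 3 without treated wild type plain 2 or treated Cthrc1-/- F 3, and 1 without wild type PBS plain 2 or F 3. It was 0 without treated wild type plain 1, plain 3, F 1 or F 3, treated Cthrc1-/- plain 1, 2 or 3, F 1 or F 2, Cthrc1-/- PBS plain 1, plain 3 or F 1, or wild type PBS plain 3. Leaving out either of the 2 treated wild type libraries with low members (plain 2 or F 2) gave 17 members called higher in Cthrc1-/-, with 6.55% and 7.27% of all genes. Without treated wild type F 2, 1.84% of all genes were lower between treated genotypes. Without the 4 libraries with intestinal transcripts, F 1 and F 3 were the treated wild type libraries left. The Cthrc1-/- response still used both title sets, and 19 members rose (6.66% of all genes). The wild type response and the difference between treated genotypes were taken within the F set alone. There 24 members rose in wild type (6.68%), and edgeR called 0 lower between treated genotypes (0%). Both results stand beside those of the F set with all libraries, not beside the pooled counts. Without the 5 libraries high in Rn7sk, 8 members rose in Cthrc1-/- (6.93%) and 23 in wild type (9.22%), and edgeR called 0 lower between treated genotypes (0.898%).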

How the data were processed

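Total RNA of 24 mouse aorta samples was sequenced as paired ends with a stranded total RNA kit, per the labels' protocols. The authors deposited 1 table that gives each gene a raw count and an FPKM in each library. HISAT2, StringTie, DESeq2 and build GRCm38 are named in the submitters' processing notes, without versions. How counts were made is not given in the sources used here. Another 4 value columns, of 2 libraries without labels, were left out of every step.

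The main test on the counts was that of edgeR 4.0.16 (R 4.3.3). Of 40141 genes, 24623 passed filterByExpr (minimum count 10, minimum total 15). TMM factors and a robust quasi-likelihood fit of 8 group means (genotype, treatment, title set) followed. Contrasts averaged the title sets, with Benjamini-Hochberg adjustment over all genes tested and a threshold of 0.05. Standard errors were derived from the F statistic. Levels are CPM with TMM factors. FPKM were used for levels between genes and in an alternative with limma 3.58.1 on log2(FPKM + 1). DESeq2 1.42.0 and the other alternatives are described with their effects below. Depth was 39.0e6 to 82.0e6 counts, and the common biological coefficient of variation was 57%, so the spread between libraries set the precision. No 2 replicates agreed within sampling noise (chi-square at least 61.5 per degree of freedom).

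Members and lists were chosen with earlier results of these data known. Full values are given for up to 3 members of each role with the smallest adjusted p in a comparison, and for up to 8 pathway genes. The values of 1 other pathway gene are not reported here. Zbp1 and Oas3 under PBS, Bst2, and the treated libraries described singly were chosen after their values were seen. Promoter windows are those of RefSeq, matched by symbol. The fit was tested on simulated data.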

Additional observations from a re-analysis of the deposited data

Results flagged for a closer look

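Of 196 tests of 1 library against the other 5 of its genotype and treatment (49 members in 4 groups), 10 found a library far from the rest by Dixon's criterion. Chance flags about 1 in 20, which here is 9.8. Wild type PBS plain 2 gave 6 of the 10, as the highest library for Ifi47 (12.7 CPM, next 7.89), Tap1 (33.2 CPM, next 26.1), Gbp2 (63.7 CPM, next 44.4), Iigp1 (72.8 CPM, next 36.1), Irgm2 (54.6 CPM, next 34.55) and Tgtp1 (26.7 CPM, next 14.6). Treated Cthrc1-/- F 1 gave 3, as the highest for Bst2 (177 CPM, next 72.2), Ifi35 (41.8 CPM, next 26.2) and Ifi27l2a (233 CPM, next 93.0). This library had 13.2 CPM of Rn7sk, one of the 5 highest. Cthrc1-/- PBS F 3 was the highest for Iigp1 (91.2 CPM, next 43.2).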

How the results depend on the processing

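Settings other than the one reported were another scaling (RLE), DESeq2, no filter, a stricter filter, 4 group means, limma on log2(FPKM + 1), a replicate block, only the 12 libraries compared, a fold of at least 2, and leaving out each of the 24 libraries. Leaving out the 5 libraries high in Rn7sk or the 4 with intestinal transcripts was chosen after seeing the data. Without the intestinal libraries no treated wild type plain library was left. The wild type response, the difference between treated genotypes and the interaction were then taken within the F set alone. Counts below for these comparisons in that setting are therefore not like for like with the pooled counts. No called member changed sign in any setting. Medians near 0 did: that of the 12 GTPases was -0.16 in Cthrc1-/- and 0.09 without Cthrc1-/- PBS F 3. Between genotypes under PBS it was 0.03, and -0.16 to 0.19 without 1 library, and that of the 37 others 0.08, and -0.05 to 0.13. For the difference between title sets in wild type the GTPase median was -0.12, and -0.48 to 0.25 without 1 library.

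The share of all genes called is not given for every setting below. A changed count of members or pathway genes need therefore not be particular to them. Members called higher in Cthrc1-/- (11) became 17 with only the 12 libraries compared and 19 without intestinal libraries (6.66% of all genes). They were 8 to 17 when 1 library was left out. The 1 member lower in Cthrc1-/- became 0 with 4 group means, a fold of at least 2 or limma, and 0 to 1 without 1 library. Members higher in wild type (31) ranged from 27 to 34 without 1 library. With none lower in wild type, DESeq2 gave 1, and leaving out 1 library 0 to 1. The 2 members lower in treated Cthrc1-/- than in treated wild type became 1 with 4 group means, a fold of at least 2 or limma, and 0 with no filter, the 12 libraries, the replicate block or without the intestinal or Rn7sk libraries, and 0 to 6 without 1 library (6 without wild type Ang-II/BAPN F 2). For the interaction DESeq2 gave 1 lower. The causes were not tested.

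Pathway genes higher in Cthrc1-/- (22) became 14, and in wild type (33) 21, at a fold of at least 2. Those lower in Cthrc1-/- (0) became 1 with DESeq2, the 12 libraries or without intestinal libraries, and 0 to 1 without 1 library. Those lower in wild type (1) became 0 at a fold of at least 2, with limma, no filter or without intestinal libraries, 2 without Rn7sk libraries, and 0 to 2 without 1 library. Between treated genotypes, 0 higher became 1 with DESeq2 or the stricter filter and 0 to 2 without 1 library. The 2 lower became 8 with DESeq2, 1 with no filter, 0 at a fold of at least 2, with the 12 libraries, the block or without intestinal libraries, and 0 to 5 without 1 library. For the interaction DESeq2 gave 1 lower. On the sense strand only, 30.6% of members with a window held an ISRE core.

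Same-numbered samples of different groups did not deviate together more than others did. Over 36 same-numbered pairs r ran from -0.47 to 0.55 (median -0.10), and over 72 other pairs from -0.54 to 0.59 (median 0.06). The check gave no sign that the numbers pair the samples. It cannot exclude pairing, since differences between single libraries may hide it. With the replicate block 10 members rose in Cthrc1-/- and 29 in wild type, with the share of all genes in that fit not given. Depth did not limit most members, but Oas3 had as few as 6 counts in a library.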
